A study of Mus musculus with 9 samples.

Results

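Keratin 18 and 7 other epithelial keratins were followed in ROC6, a mouse oral squamous cell line, by their gene symbols in a table of FPKM, in which fragments are counted relative to the length of the transcript and the size of the library. Of the 8 keratins, 6 had a row among the 15446 uniquely named genes: the simple epithelial keratins Krt18, Krt8, Krt7 and Krt19, and the stratified epithelial keratins Krt15 and Krt17. Krt5 and Krt14, the basal pair of stratified epithelium, had no row and are unmeasured here. Krt18 was chosen by its FPKM with guide 1 against control and against guide 2, so its levels are given as a description with no test, and the other keratins were added as its relatives and partners. Only Krt18 reached a mean of 1 FPKM over the 9 libraries, the minimum for the main test.

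Polyadenylated RNA was sequenced from ROC6 cells grown in DMEM with FBS: 3 libraries of cells in which Csmd3 was knocked out through guide 1, 3 libraries of cells in which guide 2 was used instead, and 3 libraries of the WT control, which has no knockout. Csmd3 itself is not analysed here. The knockouts are described as clone 1 and clone 2, so each guide appears to stand for 1 clone, and a difference between guides cannot be told apart from a difference between clones. Nothing in the labels says that the libraries of a group came from separate cultures, so p-values cover the spread among the 9 libraries alone, and that spread may be technical. In 15441 of the 15446 rows the guide 1 and guide 2 means were both above or both below that of the control, so a direction common to the knockouts is a property of the table. Genes whose guide means lay on opposite sides are thus nearly absent. A missing row therefore does not show a lack of expression, and shares over all genes describe the rows of this table alone. Both comparisons also share the control libraries. Summed FPKM over uniquely named genes ran from 162625 to 168620 per library. The depth behind each value is unknown, since read totals cannot be had from FPKM.

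Keratins are the intermediate filament proteins of epithelial cells. A filament needs equal amounts of a type I keratin, such as Krt18, Krt19, Krt14, Krt15 or Krt17, and a type II keratin, such as Krt8, Krt7 or Krt5, and a keratin without a partner is usually degraded. Krt8 and Krt18 are the first pair to appear in the embryo and remain the main pair of simple epithelia, whereas the basal layer of oral mucosa is known for Krt5 and Krt14.

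In the RefSeq table of GRCm38.p6, 5 of the 8 keratins had a promoter sequence, and those of Krt18, Krt8 and Krt7 are shown because these 3 simple keratins were each higher with guide 1. Each is the 250 bases before the annotated start, 5′ to 3′ on the gene's own strand, at chr15:102027966-102028215, plus strand for Krt18, chr15:102004343-102004592, minus strand for Krt8 and chr15:101412153-101412402, plus strand for Krt7. Capitals mark matches, on either strand, to 6 motifs: TATAAA (the core promoter box), TGANTCA (AP-1), GGGCGG (GC box), GGAATG (TEAD), CAGGTG (an E-box) and the CArG box.
Krt18: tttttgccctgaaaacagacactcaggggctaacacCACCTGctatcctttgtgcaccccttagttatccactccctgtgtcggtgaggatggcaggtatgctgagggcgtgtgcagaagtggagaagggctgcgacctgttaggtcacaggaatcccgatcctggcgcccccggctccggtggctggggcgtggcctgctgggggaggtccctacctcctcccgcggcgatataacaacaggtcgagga
Krt8: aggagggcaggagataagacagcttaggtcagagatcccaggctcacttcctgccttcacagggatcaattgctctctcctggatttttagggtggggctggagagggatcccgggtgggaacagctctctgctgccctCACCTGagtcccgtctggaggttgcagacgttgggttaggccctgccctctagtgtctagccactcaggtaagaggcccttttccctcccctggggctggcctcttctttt
Krt7: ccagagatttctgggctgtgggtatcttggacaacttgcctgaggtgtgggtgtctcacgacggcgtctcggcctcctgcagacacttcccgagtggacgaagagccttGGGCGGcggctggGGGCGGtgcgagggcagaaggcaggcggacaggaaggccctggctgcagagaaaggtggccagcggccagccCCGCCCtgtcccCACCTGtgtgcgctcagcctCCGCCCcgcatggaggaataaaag

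The E-box CAGGTG was found once in each of the 3 windows, on the strand opposite to the printed one, and the GC box 4 times in the Krt7 window. Of 32851 mouse promoter windows of the same length, 17.2% held this E-box and 32.7% the GC box. The other 4 motifs had no match in these windows, against shares of 12.4% for TATAAA, 6.7% for TGANTCA, 12.6% for GGAATG and 1.5% for the CArG box over all windows. In the same annotation Krt8 and Krt18 are neighbours on chromosome 15 with no protein-coding gene between them.

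Krt18, the type I keratin of simple epithelia, stood at 116, 126 and 114 FPKM in the guide 1 libraries, at 6.06, 4.58 and 4.39 FPKM in the guide 2 libraries, and at 4.33, 3.50 and 3.27 FPKM in the control libraries. All 3 guide 1 libraries were far above the other 6, while the lowest guide 2 library lay just above the highest control library. The group means were 119 ± 6.56 FPKM with guide 1, 5.01 ± 0.910 FPKM with guide 2 and 3.70 ± 0.561 FPKM in the control (SD, n = 3 each). The ratio of means was 32.1 for guide 1 over control, 23.7 for guide 1 over guide 2 and 1.35 for guide 2 over control. On the log2(FPKM + 1) scale, which understates the change of low genes, the differences were 4.68, 4.33 and 0.35 in the same order (model SE 0.110). In bulk RNA, more cells with Krt18 and more Krt18 RNA per cell cannot be told apart.

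**Figure D1:**
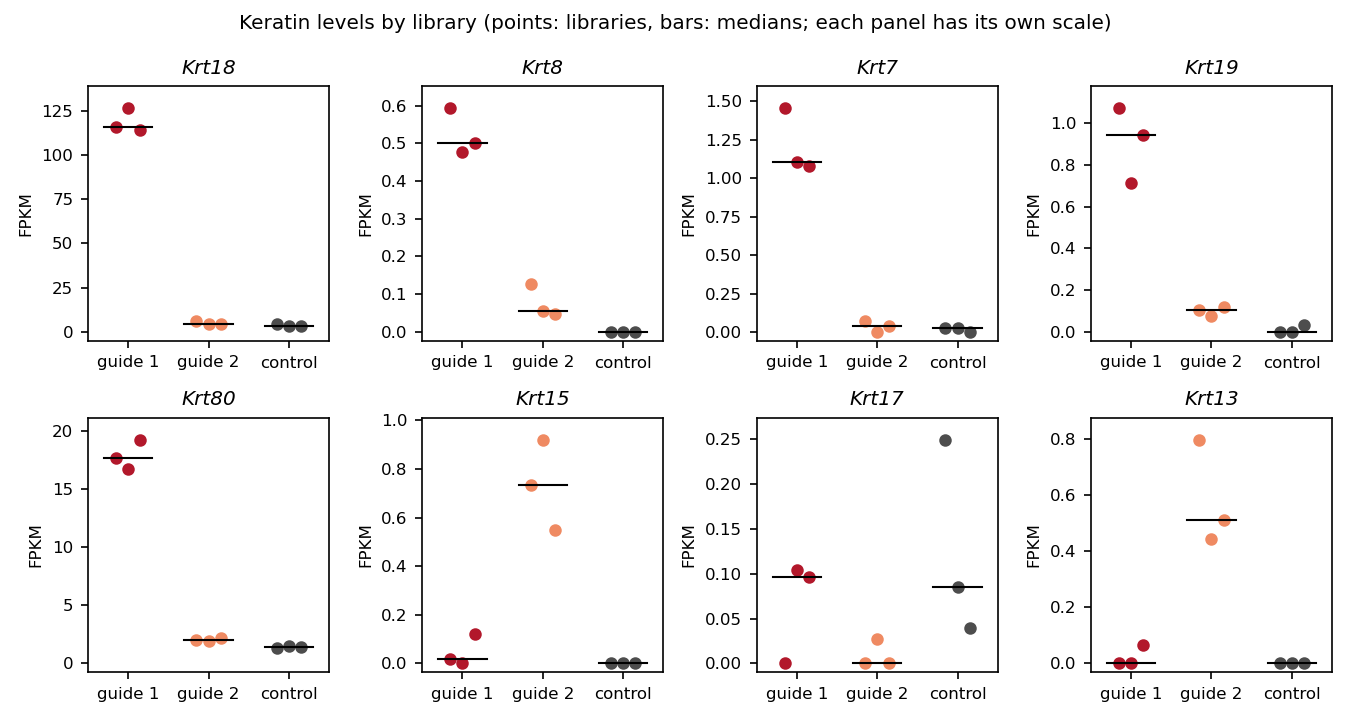
FPKM of 8 keratins (vertical axis, own scale per panel) in the 3 libraries of guide 1, guide 2 and control (points; bars are medians). Krt18, Krt8, Krt7, Krt19 and Krt80 were highest in all 3 guide 1 libraries, and Krt15 and Krt13 in all 3 guide 2 libraries.

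Among the 15446 uniquely named genes with a row, Krt18 ranked 223, 193 and 221 by FPKM in the guide 1 libraries. It ranked 4153, 4741 and 4834 with guide 2, and 4885, 5251 and 5316 in control libraries. By the difference from control, it ranked 3 of 6965 tested genes with guide 1 and 1463 with guide 2. These ranks describe the values by which Krt18 was chosen.

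Krt8, the usual type II partner of Krt18, stood at 0.592, 0.478 and 0.50 FPKM with guide 1, at 0.128, 0.0557 and 0.0471 FPKM with guide 2, and was listed at 0 in all 3 control libraries. Its groups had the same order as those of Krt18 and did not overlap, and every library was under 1 FPKM. With no filter on low values, Krt8 was 0.61 log2 units higher with guide 1 than in the control (SE 0.0381, limma adjusted p = 8.28e-06), and 0.50 higher with guide 1 than with guide 2 (limma adjusted p = 4.67e-05). Its difference of 0.11 between guide 2 and control did not pass (limma adjusted p = 0.0686). The level of Krt18 was 196, 264 and 228 times that of Krt8 in the guide 1 libraries, and 47.4, 82.2 and 93.2 times in the guide 2 libraries. A Krt8 pseudogene, Krt8-ps, had a row with 0, 0.0598 and 0 FPKM with guide 1, 0.240, 0.0566 and 0 FPKM with guide 2, and 0 in the control, and reads shared between both genes could be divided differently between libraries.

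Krt7, a type II keratin of ductal and glandular epithelia, stood at 1.45, 1.11 and 1.08 FPKM with guide 1, at 0.0718, 0 and 0.0372 FPKM with guide 2, and at 0.0265, 0.0236 and 0 FPKM in the control. The guide 1 libraries lay above all others, and those of guide 2 and control overlapped. With no filter on low values, Krt7 was 1.12 log2 units higher with guide 1 than in the control (SE 0.0646, limma adjusted p = 5.38e-06) and 1.09 higher with guide 1 than with guide 2 (limma adjusted p = 1.31e-05). Between guide 2 and control the difference of 0.03 did not pass (limma adjusted p = 0.784).

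Krt19, a small type I keratin of simple and ductal epithelia, stood at 1.07, 0.712 and 0.942 FPKM with guide 1, at 0.104, 0.0781 and 0.120 FPKM with guide 2, and at 0, 0 and 0.0348 FPKM in the control. The 3 groups did not overlap. With no filter on low values, the difference from control was 0.91 log2 units with guide 1 (SE 0.0646, limma adjusted p = 1.6e-05), while the 0.12 with guide 2 missed the threshold (limma adjusted p = 0.207). Between guide 1 and guide 2 it was 0.79 (limma adjusted p = 6.59e-05).

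The 3 simple keratins other than Krt18 were each called higher with guide 1 than in the control and than with guide 2, and in neither comparison did their libraries overlap. In this unfiltered fit of 15446 genes, 17.2% were called higher with guide 1 than in the control and 12.1% higher than with guide 2, and 21.8% and 16.5% of rows did not overlap in these directions. These 3 keratins were selected as relatives of Krt18 with earlier results known, so their count is a description. None of the 3 was called between guide 2 and control, where 16.9% of genes were called higher, although Krt8 and Krt19 did not overlap between these groups. Over all rows, 21.7% did not overlap in that direction. Summed over Krt8, Krt7 and Krt19, the level was 3.12, 2.30 and 2.52 FPKM with guide 1, 0.304, 0.134 and 0.205 FPKM with guide 2, and 0.0265, 0.0236 and 0.0348 FPKM in the control.

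The stratified keratins did not follow this order. Krt15, a type I keratin of basal cells, stood at 0.0199, 0 and 0.122 FPKM with guide 1, at 0.735, 0.920 and 0.550 FPKM with guide 2, and was listed at 0 in all 3 control libraries. Its guide 2 libraries were above all others. With no filter on low values, Krt15 was 0.79 log2 units higher with guide 2 than in the control (SE 0.0769, limma adjusted p = 0.000112) and 0.72 lower with guide 1 than with guide 2 (log2 difference -0.72, limma adjusted p = 0.000258), where 14.8% of genes were called lower. The log2 difference of 0.06 between guide 1 and control did not pass (limma adjusted p = 0.554).

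Krt17, a type I keratin of activated and appendage keratinocytes, stood at 0, 0.104 and 0.0958 FPKM with guide 1, at 0, 0.0276 and 0 FPKM with guide 2, and at 0.249, 0.0851 and 0.0396 FPKM in the control. No group pair passed for Krt17 (limma adjusted p = 0.453 for guide 1 and 0.138 for guide 2 against control, and 0.564 between guides), and no library reached 1 FPKM. Its guide 2 libraries all lay below those of the control, as in 21.8% of rows, while guide 1 and control overlapped, where 23.8% of rows were lower without overlap and 20.1% were called lower with no filter on low values.

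The simple keratins made up 99.9% ± 0.0856 of the summed FPKM of the 6 measured keratins with guide 1. The share was 87.4% ± 3.59 with guide 2 and 97.0% ± 2.18 in control libraries (SD, n = 3 each). It leaves out the unmeasured Krt5 and Krt14. With guide 1, Krt18 alone averaged 119 FPKM of a simple sum of 121 FPKM. The share there thus largely repeats the values by which Krt18 was chosen.

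Of 46 other keratins on a family list, 7 had a row and 1, Krt80, reached a mean of 1 FPKM. Krt80, a type II keratin, stood at 17.7, 16.7 and 19.3 FPKM with guide 1, at 2.00, 1.95 and 2.21 FPKM with guide 2, and at 1.30, 1.48 and 1.38 FPKM in the control. The 3 groups did not overlap and followed the order of Krt18. Krt80 rose by 2.98 log2 units with guide 1 against control (SE 0.0669, limma adjusted p = 1.68e-10) and by 0.36 with guide 2 against control (limma adjusted p = 0.000892). Between guide 1 and guide 2 it differed by 2.63 (limma adjusted p = 1.78e-09). Of the 6965 tested genes, 68.1% were called in either direction with guide 1 and 65.4% with guide 2 against control, and 54.5% between guides. By direction, 30.2% were called higher with guide 1 and 31.9% with guide 2 against control, and 23.3% higher and 31.2% lower with guide 1 than with guide 2.

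The other 6 keratins on that list with a row, Krt10, Krt13, Krt16, Krt28, Krt76 and Krt87, lay under 1 FPKM in every library. Krt13, the type I keratin of suprabasal oral epithelium, stood at 0, 0 and 0.0651 FPKM with guide 1, at 0.797, 0.444 and 0.512 FPKM with guide 2, and was listed at 0 in the control. As for Krt15, its guide 2 libraries were above all others. With no filter on low values, Krt13 was 0.66 log2 units higher with guide 2 than in the control (limma adjusted p = 0.000261), where 16.9% of genes were called higher. Krt87 was instead 0.21 higher with guide 1 than in the control (limma adjusted p = 0.02), where 17.2% were called higher. It was 0.18 higher with guide 1 than with guide 2 (limma adjusted p = 0.0441), where 12.1% were, although these libraries overlapped. Krt10, Krt16, Krt28 and Krt76 were called in no comparison. Krt13 and Krt87 were described after their values were seen.

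Summed over the measured keratins of both lists, type I keratins reached 118, 128 and 116 FPKM with guide 1, 8.65, 6.98 and 6.40 FPKM with guide 2, and 5.03, 3.90 and 3.71 FPKM in the control. The sums of type II keratins were 20.0, 18.5 and 20.9 FPKM with guide 1, 2.21, 2.01 and 2.37 FPKM with guide 2, and 1.33, 1.55 and 1.38 FPKM in the control. Per 100 FPKM of type I keratin there were 17.0, 14.5 and 18 FPKM of type II keratin with guide 1, 25.6, 28.8 and 37.0 with guide 2, and 26.5, 39.7 and 37.2 in control libraries. The guide 1 libraries lay below all others in this ratio, and guide 2 and control overlapped. Krt18 was nearly all of the type I sum with guide 1. The ratio and the share of Krt18 therefore rest on the values by which Krt18 was chosen, and are a description. Krt18 made up 98.5% ± 0.207 of the type I sum with guide 1, 68.1% ± 2.22 with guide 2 and 88.0% ± 1.74 in control libraries (SD, n = 3 each). Krt80 made up 90.3% ± 1.75 of the type II sum with guide 1, 93.7% ± 3.47 with guide 2 and 97.9% ± 2.18 in control libraries (SD, n = 3 each). Because keratins without a row are missing from both sums, the ratio describes the measured genes and not the whole keratin content.

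**Figure D2:**
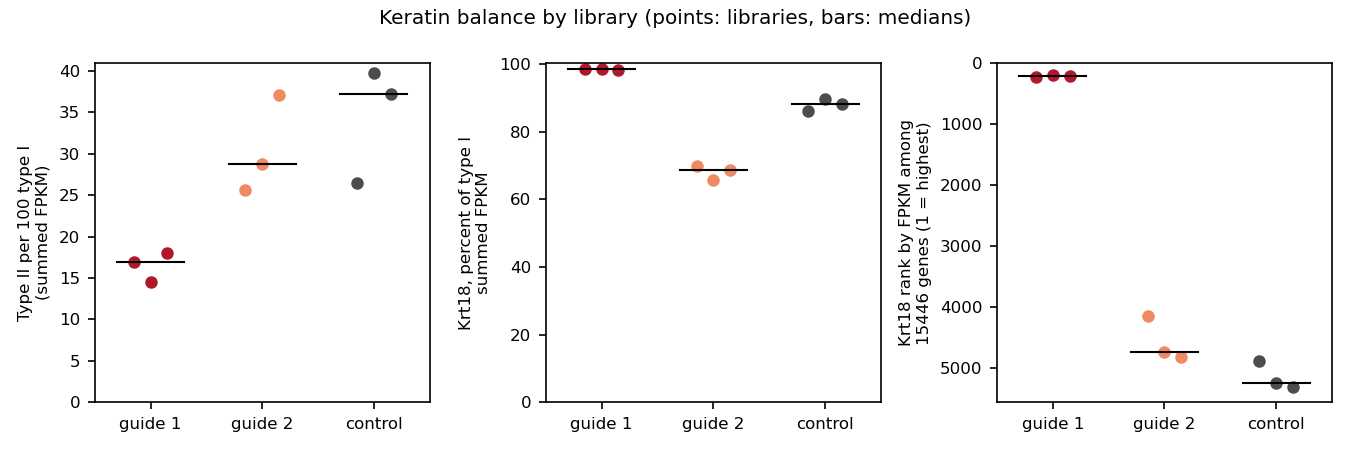
Type II per 100 type I keratin by summed FPKM (left), Krt18 as percent of the type I sum (middle) and rank of Krt18 by FPKM within each library (right, 1 at the top), for 3 libraries per group (points; bars are medians). The guide 1 libraries had the lowest type II share, between 14.5 and 18, and Krt18 ranks between 193 and 223. All panels rest on the Krt18 levels by which the gene was chosen.

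Genes whose pattern was most like that of Krt18 were found by the root mean square difference of log2(FPKM + 1), centred on the mean of each gene, over the 9 libraries. Of 6964 other genes the closest were Tagln, which encodes the actin-bundling protein transgelin, at 0.197 log2 units, Pgf, a placental growth factor, at 0.375, Slco4a1, an organic anion transporter, at 0.642, Ccn2, a matricellular protein, at 0.671, and Rnf128, a ubiquitin ligase, at 0.772. Krt80 was the sixth, at 0.817. Tagln had 253, 244 and 240 FPKM with guide 1, 10.5, 10.7 and 10.1 FPKM with guide 2, and 8.88, 8.47 and 10.9 FPKM in the control. Ccn2 had 603, 619 and 683 FPKM with guide 1, 80.8, 80.2 and 87.0 FPKM with guide 2, and 56.1, 51.2 and 72.3 FPKM in the control. As the search asked for this pattern, these levels are a description.

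**Figure D3:**
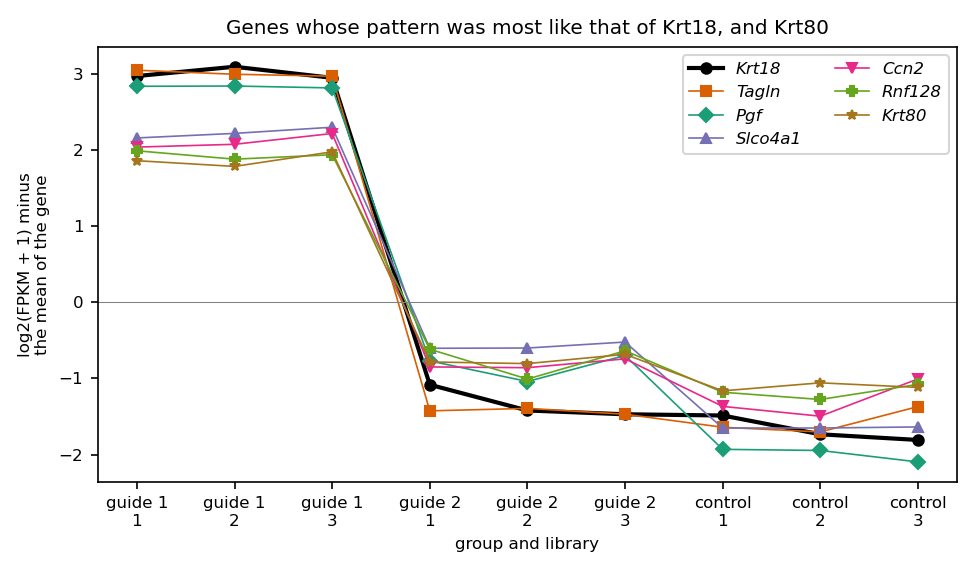
Log2(FPKM + 1) minus the mean of each gene (vertical axis) in the 9 libraries for Krt18, the 5 genes closest to it and Krt80. All 7 lines are high in the 3 guide 1 libraries and low in the other 6, and Tagln, at a distance of 0.197 log2 units, follows Krt18 most closely.

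Plakins tie keratin filaments to junctions and to other filaments. Of 7 listed plakins, 5 had a row and 4 were tested, of which 4 were called higher with guide 1 and 4 with guide 2 against control. Over all tested genes, 30.2% were called higher with guide 1 and 31.9% with guide 2. Since 15441 of the 15446 rows had both guide means on the same side of the control, the common direction is no separate result. With no filter on low values, the guide 2 call of Dst, a cytoskeletal linker, was lost (limma adjusted p = 0.0401 with the filter and 0.0670 without it), which leaves 3. The median log2 difference was 0.91 with guide 1 and 0.63 with guide 2, against -0.04 and -0.03 over all tested genes. Plec, the widely expressed linker plectin, stood at 18, 20.8 and 20.8 FPKM with guide 1, 10.8, 13.3 and 12.7 FPKM with guide 2, and 5.81, 6.55 and 6.92 FPKM in the control. Its 3 groups did not overlap, and it rose by 1.49 log2 units with guide 1 (limma adjusted p = 1.65e-07) and 0.83 with guide 2 (limma adjusted p = 1.62e-05). Ppl, a plakin of the cornified envelope and desmosomes, rose by 1.30 with guide 1 and 0.80 with guide 2 against control (limma adjusted p = 1.77e-07 and 8.54e-06). Dsp, the desmosomal plakin that anchors keratins, had no row.

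Among the other intermediate filament genes, Vim was far more abundant than any measured keratin. Vim, which encodes vimentin, the filament protein of mesenchymal and many cultured cells, stood at 655, 658 and 691 FPKM with guide 1, 531, 558 and 558 FPKM with guide 2, and 512, 491 and 508 FPKM in the control. It was thus 5.21 to 6.06 times as high as Krt18 in the guide 1 libraries, 87.7 to 127 times in the guide 2 libraries and 118 to 155 times in the control libraries. Vim rose by 0.41 log2 units with guide 1 (limma adjusted p = 8.26e-06), while its difference of 0.12 with guide 2 (limma adjusted p = 0.0219) turned to -0.021 after quantile normalization. The guide 2 call for Vim was also lost with no filter on low values (limma adjusted p = 0.113), with the compared libraries alone (0.0532), and without guide 2 replicate 2 (limma adjusted p = 0.0788), guide 2 replicate 3 (0.0729) or control replicate 2 (0.0811). Nes, the filament protein nestin of progenitor cells, stood at 19.7, 20.6 and 19.4 FPKM with guide 1, 3.24, 3.55 and 3.51 FPKM with guide 2, and 0.422, 0.529 and 0.472 FPKM in the control. The groups of Nes did not overlap, and it rose by 3.82 log2 units with guide 1 and 1.59 with guide 2 (limma adjusted p = 1.36e-11 and 5.97e-09).

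The nuclear lamins went in opposite directions. Lmna, the gene of the A-type lamins, rose by 0.75 log2 units with guide 1 and 1.15 with guide 2 (limma adjusted p = 1.21e-07 and 7.87e-09). Lmnb1, a B-type lamin gene, fell to 62.1 ± 1.84 FPKM with guide 1 and 65.1 ± 1.16 FPKM with guide 2, against 138 ± 8.84 FPKM in the control (SD, n = 3 each, limma adjusted p = 1.81e-08 and 3.74e-08). Of 15 listed filament genes 7 had a row and 4 were tested, with 3 called higher and 1 lower with each guide (medians 0.58 and 0.63). Over all tested genes, 30.2% were called higher and 37.9% lower with guide 1, and 31.9% and 33.5% with guide 2.

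**Figure D4:**
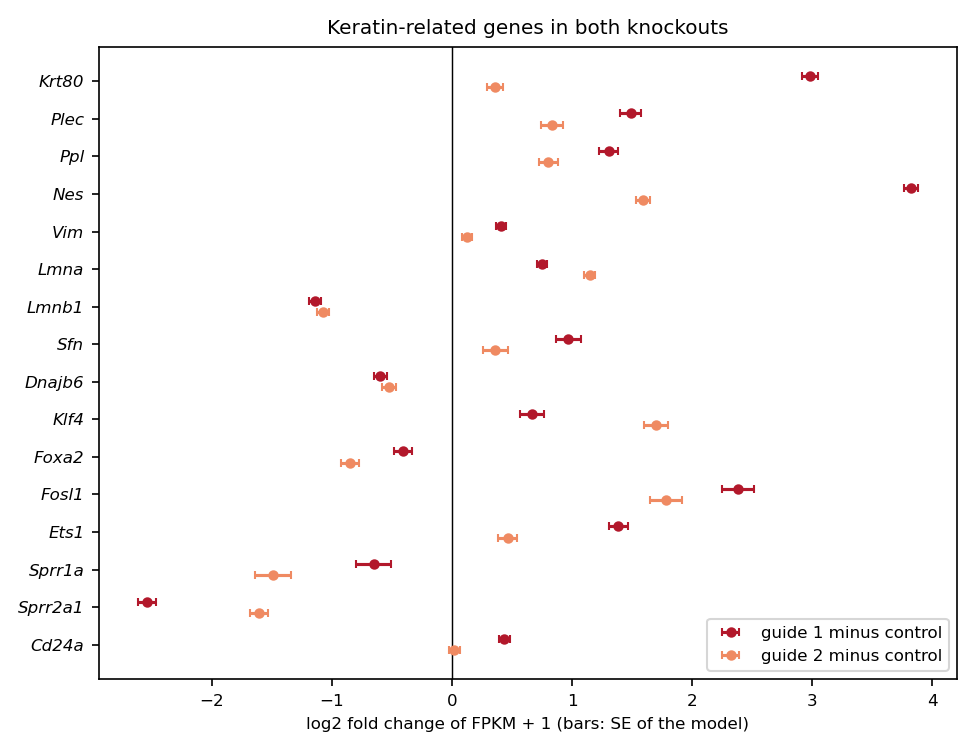
Log2 difference of FPKM + 1 against control (horizontal axis, bars are the model SE) for Krt80 and genes of the keratin-related lists with guide 1 and guide 2. Krt80 and Nes lie farthest to the right with guide 1, at 2.98 and 3.82, while Sprr2a1 lies farthest to the left with both guides, at -2.54 and -1.61.

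Among proteins that bind or modify keratins, 8 of 17 had a row and 7 were tested. With guide 1, 2 were called higher and 4 lower, and with guide 2, 2 higher and 3 lower than in the control (medians -0.37 and -0.09). Of all tested genes, 37.9% and 33.5% were called lower, and 30.2% and 31.9% higher, with guide 1 and guide 2. Sfn, a 14-3-3 protein of squamous epithelium, rose by 0.97 with guide 1 and 0.36 with guide 2 on the log2 scale (limma adjusted p = 1.43e-05 and 0.0115). Dnajb6, a chaperone known to bind Krt18, fell to 24.2 ± 0.619 FPKM with guide 1 and 25.5 ± 1.25 FPKM with guide 2, against 37.2 ± 2.13 FPKM in the control (SD, n = 3 each, limma adjusted p = 4.07e-06 and 1.33e-05).

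Of 11 listed AP-1, Ets and Sp factors, 7 had a row and 6 were tested. AP-1 and Ets factors are known to act on the Krt18 gene. Of the tested factors, 3 were higher and 2 lower with guide 1, and 3 higher and 3 lower with guide 2 (medians 0.46 and 0.16). The shares over all tested genes were 30.2% higher and 37.9% lower with guide 1, and 31.9% and 33.5% with guide 2. Of the 3 lower calls with guide 2, those of Jund, an AP-1 subunit, and Sp3, a GC box-binding factor, were lost with no filter on low values (limma adjusted p = 0.0686 and 0.0622), which leaves 1. Fosl1, an AP-1 subunit, stood at 14.3, 14.9 and 16.2 FPKM with guide 1, 9.15, 10.8 and 9.16 FPKM with guide 2, and 2.00, 1.55 and 2.88 FPKM in the control. Ets1 rose by 1.39 log2 units with guide 1 and 0.46 with guide 2 (limma adjusted p = 9.44e-08 and 0.000386), and was 0.92 higher with guide 1 than with guide 2 (limma adjusted p = 4.12e-06).

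Of 19 listed epithelial transcription factors, 10 had a row and 4 were tested. With guide 1, 1 was higher and 3 lower, and with guide 2, 1 was higher and 2 lower (medians -0.38 and -0.22). By comparison, 30.2% of all tested genes were higher and 37.9% lower with guide 1, and 31.9% and 33.5% with guide 2. Klf4, a factor of squamous differentiation, was the one that rose, by 0.67 log2 units with guide 1 and 1.70 with guide 2 (limma adjusted p = 0.000167 and 1.95e-07). Foxa2, a factor of endodermal epithelia, fell by 0.41 with guide 1 and 0.85 with guide 2 (limma adjusted p = 0.000775 and 4.42e-06).

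The squamous identity given by the labels could be checked only in part, since Krt5, Krt14, Krt6a, Krt6b and Trp63 had no row. Perp, a desmosome-associated gene of stratified epithelia, was at 105 FPKM with guide 1, 83.4 FPKM with guide 2 and 79.1 FPKM in the control on average. The other squamous markers with a row were far lower. Sfn averaged 2.99, 1.61 and 1.03 FPKM in the same order, and Krt17 averaged 0.0666, 0.00921 and 0.125 FPKM. In the list of cornified envelope genes 8 of 33 had a row and 3 were tested. With guide 1, 1 was higher and 2 lower, and with guide 2, 0 were higher and 2 lower (medians -0.65 and -1.49). Among all tested genes, 30.2% were higher and 37.9% lower with guide 1, and 31.9% and 33.5% with guide 2. Sprr2a1, a small proline-rich envelope protein, stood at 0.111, 0.117 and 0.0969 FPKM with guide 1, 1.01, 1.29 and 1.06 FPKM with guide 2, and 5.60, 5.45 and 5.31 FPKM in the control, so the groups did not overlap.

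Among surface markers of simple epithelium, Epcam, Cdh1 and Cldn4 had no row. Cd24a, a surface glycoprotein, rose by 0.44 log2 units with guide 1 (limma adjusted p = 1.33e-05) and was at 0.02 with guide 2 (limma adjusted p = 0.71). Listed markers with a mean under 1 FPKM went in different directions against control. With no filter on low values, Muc1 was 0.56 lower and Spint2 1.16 higher with guide 1 (limma adjusted p = 0.000384 and 8.3e-07). Esrp2 was 0.46 lower with guide 2 (limma adjusted p = 0.000508).

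Markers of other cell types were given by their summed level. Of 8 mesothelial markers, 3 had a row, and their sum lay between 6.07 and 7.15 FPKM with guide 1, 30.9 and 33.3 FPKM with guide 2, and 2.34 and 3.14 FPKM in the control, nearly all of it Msln, while Wt1 and Upk3b had no row. Of 13 glandular markers, 6 had a row, with sums of 57.4 to 60.6 FPKM with guide 1, 183 to 192 FPKM with guide 2, and 38.8 to 40.8 FPKM in the control, mostly Aqp5, a water channel, and Slc12a2, an ion cotransporter. The mesothelial and glandular sums were highest with guide 2, whereas Krt18 was highest with guide 1. Aqp5 and Slc12a2 went in opposite directions. Aqp5 rose to 51.1 ± 2.16 FPKM with guide 1 and 176 ± 5.42 FPKM with guide 2, against 23.3 ± 0.903 FPKM in the control (SD, n = 3 each, limma adjusted p = 1.68e-08 and 5.94e-11). Slc12a2 fell to 7.94 ± 0.602 FPKM with guide 1 and 11.7 ± 0.747 FPKM with guide 2, against 16.7 ± 0.650 FPKM in the control (SD, n = 3 each, limma adjusted p = 3.27e-07 and 9.16e-05). Of 12 fibroblast markers, 4 had a row, mostly Twist2 and Postn by level. Their sum lay between 8.81 and 12.2 FPKM with guide 1, 13.8 and 14.6 with guide 2, and 3.70 and 4.0 FPKM in the control. Twist2 averaged 9.25 FPKM with guide 1, 5.60 FPKM with guide 2 and 2.51 FPKM in the control. Postn averaged 1.61, 7.83 and 1.30 FPKM in the same order, so these genes were highest with different guides. Col1a1, Col3a1 and Pdgfra had no row. Of 10 leukocyte markers only Cd68 had a row, at 1.20 to 1.54 FPKM with guide 1, 1.81 to 2.5 FPKM with guide 2 and 0.473 to 0.875 FPKM in the control. The 2 of 8 endothelial markers with a row, Kdr and Vwf, summed to between 0.665 and 0.714 FPKM with guide 1, 0.0454 and 0.115 FPKM with guide 2, and 0 and 0.0150 FPKM in the control, so this sum, like Krt18, was highest in the guide 1 libraries. Nearly all of it with guide 1 was Kdr, a VEGF receptor, at 0.658, 0.647 and 0.695 FPKM with guide 1, 0.0498, 0.0219 and 0.0992 FPKM with guide 2, and 0, 0.0150 and 0 FPKM in the control, while Pecam1 and Cdh5 had no row. The part of these cell types in the keratin levels was not tested.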

How the data were processed

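The labels' protocols describe a stranded poly(A) kit and paired-end reads for the 9 ROC6 libraries. The authors deposited FPKM, 1 column for each library. HISAT2, StringTie, cutadapt and FastQC are named in the submitters' processing notes. Tool versions, genome build and gene annotation: not given in the sources used here. Groups came from the sample titles.

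Of 15620 rows, 174 with 62 repeated symbols were left out. No 2 libraries held identical values. Values were analysed as log2(FPKM + 1) by limma 3.58.1 (R 4.3.3), using the 9 libraries together, a prior variance that follows the mean, and Benjamini-Hochberg adjustment. The main fit held 6965 genes with a mean of at least 1 FPKM, called at an adjusted p under 0.05. The 5 low keratins, and Krt13, Krt87, Muc1, Spint2 and Esrp2, have p-values from the fit with no filter. The fit was also run on simulated data with independent noise, which does not show how its calls behave in these libraries. Counting error is unknown, since no counts were used.

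The members and lists were chosen with earlier results of these data known. Genes named were the keratins with a row, tested keratins of the family list, the 2 called genes with the largest mean change of each other list (called with at least 1 guide), set lamin, vimentin and plakin genes, and the 5 genes most like Krt18. Krt13, Krt87, Perp, Dst, Jund, Sp3, Kdr, Vwf, Muc1, Spint2 and Esrp2 were added after their values were seen. One gene that this rule names, and the counts of its list, are not reported here. Promoters came from the RefSeq tables of GRCm38.p6. Counts of calls and tested genes were also computed with no filter, with a filter of 5 FPKM where the gene passes it, with a pseudocount of 0.1, after quantile normalization, after rescaling to means trimmed by 30% at both ends, with the replicate number as a block, with a constant prior, with the compared libraries alone, and without each library in turn. For keratins under the filter only the differences, with no p-value, were recomputed, with a pseudocount of 0.1, after rescaling and without each library.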

Additional observations from a re-analysis of the deposited data

Results flagged for a closer look

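The effects of guide 1 and guide 2 against the common control differed in 20 of the tested genes named by rule from the lists. The test was guide 1 against guide 2, in which the control cancels (limma adjusted p under 0.05). This count leaves out Krt18, the genes picked as most like it, genes under the filter and genes added after their values were seen. Some of those also passed, such as Tagln and Perp in the main fit and Krt8 with no filter on low values. The 20 are thus not all of the genes named here that differed. On the log2(FPKM + 1) scale, the effect of guide 1 minus that of guide 2 was above 0 in 12: Krt80 at 2.63, Plec at 0.66, Ppl at 0.50, Nes at 2.24, Sfn at 0.61 and Foxa2 at 0.44, and Fosl1 at 0.60, Ets1 at 0.92, Sprr1a at 0.84, Cd24a at 0.41, Twist2 at 0.62 and Vim at 0.28. It was below 0 in 8: Klf4 at -1.03, Sprr2a1 at -0.93, Msln at -2.12, Postn at -1.76, Aqp5 at -1.77, Slc12a2 at -0.51, Cd68 at -0.42 and Lmna at -0.40. Of all tested genes, 54.5% differed in this way. Most of the genes behind the count of 20 were picked for a large change from control, so that count cannot be set against this share.

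Krt80, the type II keratin, was one of the genes with a larger difference from control with guide 1 (2.98) than with guide 2 (0.36). Sprr1a and Foxa2 were lower than control with both guides, by less with guide 1 than with guide 2.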

How the results depend on the processing

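Calls numbered 4745 for guide 1 against control, 4557 for guide 2 against control and 3793 between guides, and stayed within 1.5 times of these under every alternative. Leaving out 1 library gave 4438 to 4805, 4212 to 4508 and 3375 to 3885. The difference of Krt18 moved to 4.98 for guide 1 against control and 4.55 for guide 1 against guide 2 with a pseudocount of 0.1, and without 1 library lay between 4.61 and 4.77, between 0.23 and 0.45 for guide 2 against control, and between 4.25 and 4.45 between guides. Vim with guide 2 reversed to -0.021 after quantile normalization (limma adjusted p = 0.669, over the alternatives 0.00914 to 0.669). Deviations of same-numbered libraries correlated between -0.107 and 0.245, and those of differently numbered libraries between -0.234 and 0.163. The highest values, 0.245 and 0.210, were between guide 1 and guide 2 libraries of the same number. These correlations do not settle whether replicate numbers pair the libraries, and the main fit used no pairing. With the replicate block, calls were 4764, 4559 and 3784. The keratin percentages were not run after quantile normalization, nor with a filter of 5 FPKM, which leaves Krt18 as the only keratin of the 6. Keratins near 0 FPKM are limited by the unknown depth. Low keratins have larger differences with a pseudocount of 0.1, for example 3.49 for Krt7 with guide 1.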
